A study of Mus musculus with 10 samples.

Results

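The genes described here are 41 components of focal adhesions and of the contractile actin cytoskeleton, out of 48709 genes counted in RNA from utricular supporting cells of the mouse. They were chosen by gene symbol for their function and fall into 6 roles: 10 integrin subunits, 8 plaque proteins that link integrins to actin, 4 components of the integrin-linked kinase complex, 5 signaling proteins of the plaque, 5 LIM-domain or related proteins that respond to strain and 9 contractile or actin-binding proteins. Focal adhesions are the sites at which integrins connect the extracellular matrix to actomyosin bundles. Tension carried through these sites is a known input to the transcriptional co-activator Yap, and several genes of the adhesion plaque and of the contractile apparatus are known targets of Yap with Tead factors or of serum response factor. Lats kinases phosphorylate Yap and keep it out of the nucleus.

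Supporting cells were sorted by the EGFP reporter from cultured utricles of Lfng-EGFP mice at P21, so each library represents the cells that carried the reporter at the time of sorting. The labels give 4 groups: 3 libraries after 5 days in 0.1% DMSO, 3 after 5 days in 10 µM TRULI, an inhibitor of Lats kinases, with 0.1% DMSO, 2 after 5 days in DMSO and 5 further days with no treatment, and 2 after 5 days in TRULI and 5 further days with no treatment. All groups share the reporter, the age and the vehicle. Total expected counts ran from 2463872 to 6255149 per library. No pair of libraries agreed within sampling noise, with at least 13.7 for chi-square per degree of freedom.

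The label and the deposited name of the table disagreed for 4 of the 10 libraries. A pair labelled TRULI 5 d, replicates 1 and 2, was deposited under names for DMSO withdrawal, and is called pair X. A pair labelled DMSO withdrawal, replicates 1 and 2, was deposited under names for TRULI 5 d, and is called pair Y. The remaining TRULI 5-day library, labelled replicate 3, carried the TRULI 5-day condition in both and is called the concordant TRULI 5-day library. The 3 DMSO 5-day libraries and the 2 TRULI withdrawal libraries had the same condition in both. Each comparison is therefore given with groups by label, with groups by deposited name and, where possible, with the 6 libraries whose label and name gave the same condition. By the same chi-square per degree of freedom, the concordant TRULI 5-day library was at 14 and 24.4 from pair Y, at 98 and 105 from pair X and at 20.4, 33 and 33.1 from the DMSO 5-day libraries. Which of the sources is right was not decided.

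Several measurements separated the 10 libraries along the lines of this disagreement. The 41 genes made up 0.609, 0.617 and 0.669% of protein-coding counts in the DMSO 5-day libraries, 0.928% in the concordant TRULI 5-day library, 0.91 and 0.905% in pair Y, 0.668 and 0.644% in pair X and 0.7 and 0.661% after TRULI withdrawal. On these shares pair Y lay beside the concordant TRULI 5-day library, and pair X within the range of the other libraries. After scaling between libraries this separation was lost: the members summed to 5660, 5800 and 6140 CPM in the DMSO 5-day libraries, 8160 in the concordant TRULI 5-day library, 7690 and 8570 in pair Y, 7330 and 8160 in pair X and 7440 and 7910 after TRULI withdrawal. CPM here is counts per 1000000 protein-coding counts after scaling. On that scale only the DMSO 5-day libraries stood apart, below the other 7. The mitochondrial large ribosomal RNA mt-Rnr2 took 16.8, 26.4 and 16.2% of all counts in the DMSO 5-day libraries, 18.4% in the concordant TRULI 5-day library, 23.7 and 13% in pair Y, 1.99 and 2.53% in pair X and 1.45 and 2.5% after TRULI withdrawal. It was low in pair X and in the TRULI withdrawal libraries and high in the other 6. The labels name a polyA library kit and the study's methods a kit for small amounts of RNA, and which was used for which library is not given in the sources used here. Any difference between the 4 libraries with a low share and the other 6 may therefore include one of preparation, which was not tested. Ccn2, a well-known Yap target outside the 41 genes that was looked up after the fits had been seen, was at 18.2, 10.4 and 13.8 CPM in the DMSO 5-day libraries, 848 in the concordant TRULI 5-day library, 576 and 569 in pair Y, 2.38 and 7.7 in pair X and 18 and 4.32 after TRULI withdrawal. It was high in 3 libraries, the concordant TRULI 5-day library and pair Y. Ccn1, another Yap target looked up with it, was at 445, 319 and 482 CPM in the DMSO 5-day libraries, 505 in the concordant TRULI 5-day library, 605 and 744 in pair Y, 135 and 74.8 in pair X and 162 and 51.1 after TRULI withdrawal. Mki67, a marker of dividing cells also looked up then, was at 31.9 CPM in the concordant TRULI 5-day library, 149 and 66.5 in pair Y and at most 1.93 in the other 7. Ccn1 was low in pair X and after TRULI withdrawal, and Mki67 was high in the 3 libraries in which Ccn2 was high.

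**Figure D1:**
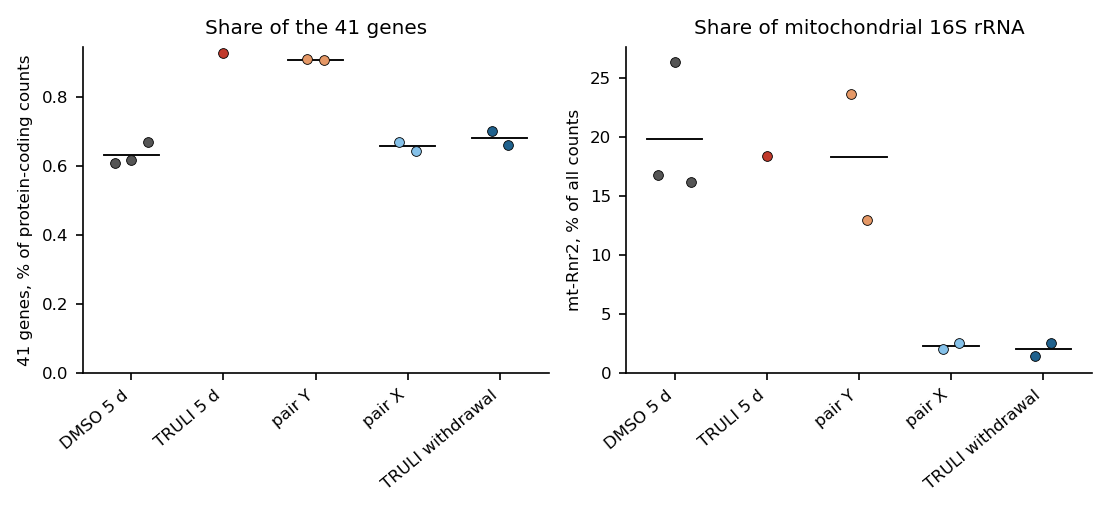
Share of protein-coding counts taken by the 41 adhesion and contractile genes (left, percent) and share of all counts taken by mt-Rnr2 (right, percent); each point is a library and each line the mean of a set of libraries. The share of the 41 genes was 0.928% in the concordant TRULI 5-day library and 0.91 and 0.905% in pair Y, against at most 0.7% elsewhere, a gap that scaling between libraries removed, while mt-Rnr2 was at most 2.53% in pair X and after TRULI withdrawal.

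The sorted cells carried markers of supporting cells. The 13 genes of that list summed to 21700, 18100 and 19300 CPM in the DMSO 5-day libraries, 11800 in the concordant TRULI 5-day library, 14300 and 15800 in pair Y, 13400 and 10600 in pair X and 11500 and 12000 after TRULI withdrawal, with Otog, which encodes otogelin of the otoconial membrane, the most abundant over all libraries and Epcam or Slc1a3 above it in 5 of the 10. The sum was higher in the DMSO 5-day libraries than in any other. Lfng, whose reporter was sorted on, was at 656, 605 and 598 CPM in the DMSO 5-day libraries, 370 in the concordant TRULI 5-day library, 646 and 343 in pair Y, 74.8 and 25.2 in pair X and 118 and 78 after TRULI withdrawal. Its low values were those of the libraries with a low share of mt-Rnr2.

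Markers of other cell types, some of which have contractile genes of their own, were read in the same libraries. Acta2, smooth muscle actin, had 0 counts in all 10 libraries, where 3 counts correspond to between 0.55 and 1.4 CPM. Tagln, which encodes transgelin of smooth muscle, had at most 5 counts in a library. The smooth muscle and pericyte list of 11 genes summed to between 71.2 and 410 CPM. Notch3 was its highest gene in every library, at between 34.7 and 396 CPM, and its defining genes Myh11 and Cnn1 were at most 2.05 and 1.2 CPM. Its sum was 71.2, 72 and 111 CPM in the DMSO 5-day libraries, 83.9 in the concordant TRULI 5-day library, 98.5 and 161 in pair Y, 221 and 410 in pair X and 187 and 330 after TRULI withdrawal. The sum was highest in pair X and after TRULI withdrawal. The 11 fibroblast genes summed to between 22.4 and 149 CPM, with Col1a2 the most abundant over all libraries and Pdgfra or Postn above it in 6 of the 10, and the 8 endothelial genes to at most 6.15 CPM, with Cldn5 and Emcn at 0 in every library. The 10 macrophage genes summed to at most 21.4 CPM, and C1qa, C1qb, C1qc, Cx3cr1 and Adgre1 were at 0 throughout. The melanocyte list of 5 genes stood between 10.3 and 56.4 CPM, nearly all of it Pmel and Mitf, with Tyr and Mlana at 0. The 8 Schwann cell and glial genes summed to between 436 and 2210 CPM. Most of it was Erbb3 in every library, with 359 of the 436 CPM in the concordant TRULI 5-day library. The 12 hair cell genes summed to 654, 384 and 483 CPM in the DMSO 5-day libraries, 1340 in the concordant TRULI 5-day library, 973 and 446 in pair Y, 408 and 410 in pair X and 1490 and 512 after TRULI withdrawal, with Myo6 the most abundant over all libraries and Otof above it in TRULI withdrawal replicate 1. The sum was above 900 CPM in 1 library each of pair Y and TRULI withdrawal and in the concordant TRULI 5-day library, and the part of these cells in any result was not tested. In bulk RNA, fewer cells of a type and less RNA per cell cannot be told apart.

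Levels per length in the DMSO 5-day libraries show which members the untreated supporting cells expressed. Given as FPKM, expected counts per kilobase of effective length and per 1000000 protein-coding counts, the highest mean was that of Cnn3 (780 ± 135, SD, n = 3), a calponin that binds actin. The integrin subunit Itgav (437 ± 158), the pseudokinase Ilk of the integrin-linked kinase complex (432 ± 57.6) and the alpha-actinin Actn4 (361 ± 69.6) followed, and these 3 did not differ from each other beyond their spread. The tropomyosins Tpm1 (291 ± 13.2) and Tpm4 (163 ± 43.1) and the integrin subunit Itgb1 (122 ± 8.57) came next. Acta2, Itga2, Tagln, Fhl2 and Cav1 lay near 0, with at most 22 counts for any of them in a library. Of the 41 genes, 38 passed the filter on low counts in the withdrawal comparison by label and 35 to 38 in the others, and Acta2, Itga2 and Tagln passed it in none.

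**Figure D2:**
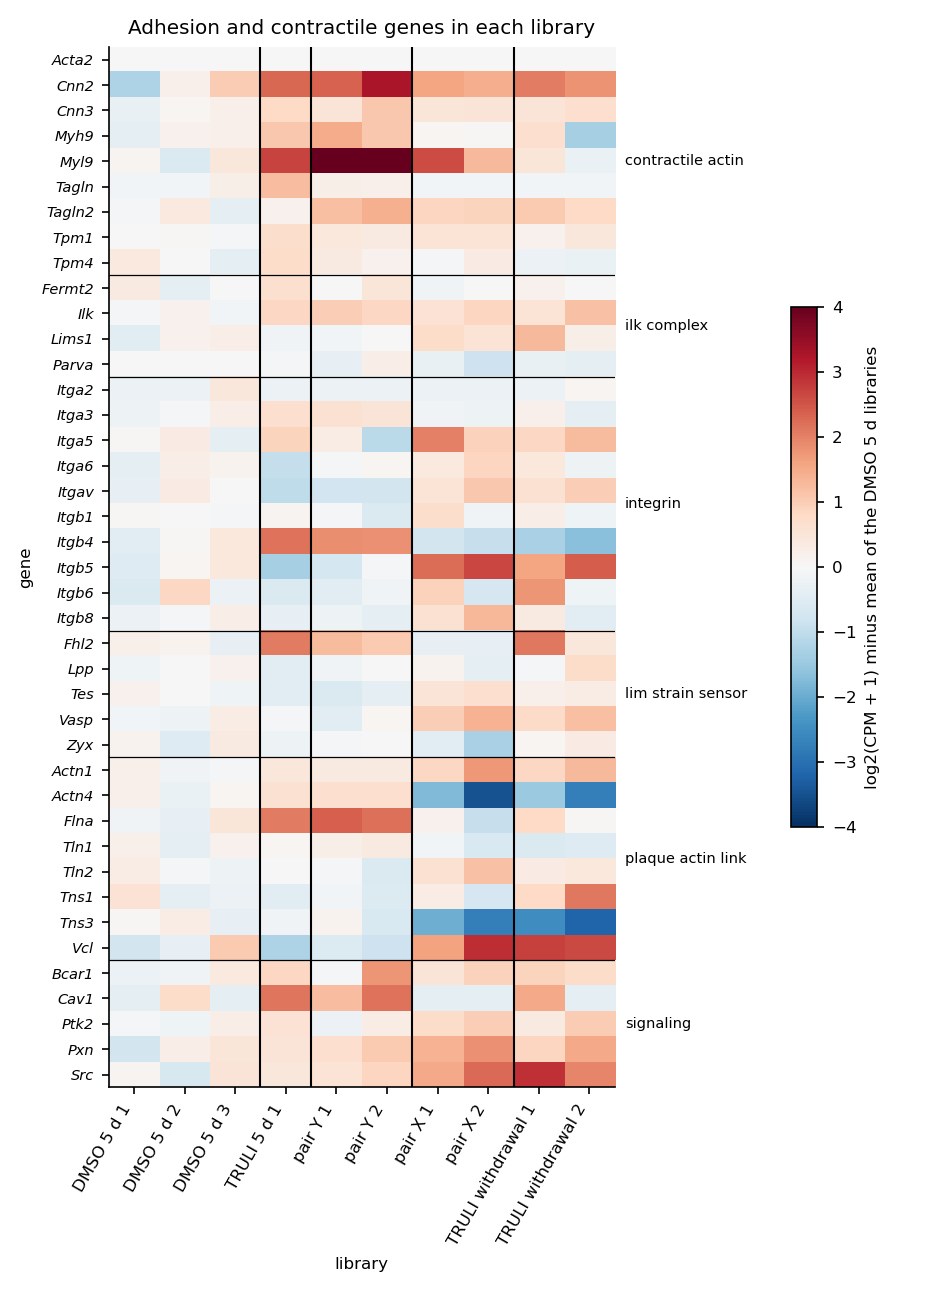
Level of each of the 41 genes in each of the 10 libraries as log2(CPM + 1) minus the mean of the 3 DMSO 5-day libraries, with genes ordered by role and libraries by set. Itgb4, Flna, Myl9 and Cnn2 were high in the concordant TRULI 5-day library and pair Y, and Vcl, Itgb5 and Src were high while Actn4 and Tns3 were low in pair X and after TRULI withdrawal.

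The promoters of 5 members that passed in a comparison below are shown, chosen because they contain a motif of Tead factors or of serum response factor. RefSeq promoters on build GRCm38.p6 were found for 34 of the 41 genes, each of 300 bases, from 250 before to 50 after the start. Capitals mark matches to GGAATG or its reverse complement CATTCC, the core of the Tead motif, and to the CArG box of serum response factor. The promoter of Flna lies at chrX:74246485-74246784 (minus strand), with CATTCC 146 bases before the start. That of Myl9 lies at chr2:156775214-156775513 (plus strand), with a CArG box 161 bases before the start, and that of Cnn2 at chr10:79988350-79988649 (plus strand), with a CArG box 56 bases before the start. The promoter of Vcl lies at chr14:20929148-20929447 (plus strand), and has a CArG box and GGAATG, 227 and 143 bases before the start. That of Actn4 lies at chr7:28962283-28962582 (minus strand), with CATTCC 216 bases before the start.
Flna: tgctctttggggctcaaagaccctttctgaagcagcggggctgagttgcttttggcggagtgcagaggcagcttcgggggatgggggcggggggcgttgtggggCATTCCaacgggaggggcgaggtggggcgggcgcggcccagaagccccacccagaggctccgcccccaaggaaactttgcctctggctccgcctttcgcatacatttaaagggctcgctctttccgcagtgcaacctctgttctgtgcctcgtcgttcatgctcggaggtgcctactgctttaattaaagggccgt
Myl9: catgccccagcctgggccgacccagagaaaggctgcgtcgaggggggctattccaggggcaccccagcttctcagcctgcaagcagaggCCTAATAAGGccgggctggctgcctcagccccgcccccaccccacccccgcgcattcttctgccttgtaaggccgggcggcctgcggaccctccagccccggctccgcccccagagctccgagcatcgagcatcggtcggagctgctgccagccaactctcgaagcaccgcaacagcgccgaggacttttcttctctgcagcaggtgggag
Cnn2: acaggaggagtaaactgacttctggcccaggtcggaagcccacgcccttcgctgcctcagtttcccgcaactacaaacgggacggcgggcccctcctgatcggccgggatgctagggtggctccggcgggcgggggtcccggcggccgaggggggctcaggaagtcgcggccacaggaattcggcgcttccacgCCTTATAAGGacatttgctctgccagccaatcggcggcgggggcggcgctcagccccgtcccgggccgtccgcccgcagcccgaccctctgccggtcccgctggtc
Vcl: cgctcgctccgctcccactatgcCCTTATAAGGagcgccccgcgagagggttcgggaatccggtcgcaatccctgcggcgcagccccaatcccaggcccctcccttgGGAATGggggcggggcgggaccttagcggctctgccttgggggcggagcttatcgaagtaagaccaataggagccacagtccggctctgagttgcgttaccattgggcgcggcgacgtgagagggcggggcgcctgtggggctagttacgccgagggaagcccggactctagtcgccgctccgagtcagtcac
Actn4: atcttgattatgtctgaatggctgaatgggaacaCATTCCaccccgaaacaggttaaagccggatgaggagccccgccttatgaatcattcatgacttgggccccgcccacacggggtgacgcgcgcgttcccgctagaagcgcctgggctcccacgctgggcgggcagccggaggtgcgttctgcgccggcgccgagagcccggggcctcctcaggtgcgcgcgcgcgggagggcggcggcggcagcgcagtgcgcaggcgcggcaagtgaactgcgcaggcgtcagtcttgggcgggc
GGAATG on either strand was found in 8 of 43 promoters of the members (18.6%) and in 14.7% of all 32851 promoters of this length. The CArG box was found in 7 of the 43 (16.3%) and in 1.63% of all. Besides those shown, it occurred in promoters of Fermt2, Fhl2 and Itgb6. Other members that passed, Itgb5, Itgav, Tns3, Tns1, Ilk, Src and Actn1, had promoters with neither motif, and for Itgb4 no promoter was found. A match describes the letters of this window and is not a bound site.

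The first question is what 5 days of Lats inhibition did to these genes. With groups by label, no member passed an adjusted p of 0.05 in edgeR's quasi-likelihood test across all genes: 0 of 36 tested, against 0.00939% of all 10646 genes tested. At an unadjusted p under 0.05 there were 9 members (13.9% of all genes), and DESeq2 called 1, Myl9 (2.42% of all genes). The median log2 fold change of the tested members was 0.605, against 0.0409 over all genes, and by deposited name 0.232, against 0.01. The labelled TRULI group holds pair X and the concordant library, which differed from each other, and without the concordant library, labelled replicate 3, 9 members passed, 7 higher and 2 lower, against 20.2% of all genes. With groups by deposited name, 5 of 35 tested members passed, all higher after TRULI, against 3.56% of all 10952 genes. These were the integrin subunit Itgb4, the plaque protein Flna, the kinase-complex member Ilk and the contractile genes Myl9 and Cnn2. With the agreeing libraries, 0 of 38 passed, against 0.0661% of all genes, with 10 at an unadjusted p under 0.05 (6.95% of all genes) and a single TRULI library in that comparison, which was assumed to vary like the other groups.

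Among the integrins, Itgb4 encodes the beta subunit that pairs with Itga6 to bind laminin. It was at 14, 20.4 and 26.6 CPM in the DMSO 5-day libraries, 91.4 in the concordant TRULI 5-day library, 73.6 and 72.4 in pair Y, 11.5 and 9.83 in pair X and 7.38 and 5.52 after TRULI withdrawal. On CPM the concordant TRULI 5-day library and pair Y lay above all others, with no overlap, and pair X lay below the DMSO 5-day libraries. On FPKM these sets overlapped. There DMSO 5 d replicate 2, at 17.5, lay above pair Y, at 16.5 and 15.9. Replicate 2 of pair X, at 3.24, lay above DMSO 5 d replicate 1, at 2.78. At 5 days the log2 fold change was 1.94 (SE 0.277, adjusted p = 0.00521) by deposited name and 0.89 (SE 0.807, adjusted p = 0.608) by label, both by edgeR. The agreeing libraries gave 2.11 (SE 0.478, adjusted p = 0.228).

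Itgb5, the beta subunit that pairs with Itgav to bind vitronectin, showed another order. Its level was 39.6, 60.1 and 76.7 CPM in the DMSO 5-day libraries, 22.2 in the concordant TRULI 5-day library, 34.6 and 53.3 in pair Y, 272 and 364 in pair X and 171 and 310 after TRULI withdrawal. Pair X and the TRULI withdrawal libraries were high without overlap with the rest, and these are the libraries with the low share of mt-Rnr2. The 5-day log2 fold change was 1.9 by label (SE 0.789, adjusted p = 0.348) and -0.684 by deposited name (SE 0.344, adjusted p = 0.356), so its sign depended on the grouping. Itgav was at 284, 447 and 362 CPM in the DMSO 5-day libraries, 177 in the concordant TRULI 5-day library, 212 and 214 in pair Y, 522 and 752 in pair X and 542 and 703 after TRULI withdrawal. Its high libraries were those of Itgb5, and the concordant TRULI 5-day library and pair Y lay below all DMSO 5-day libraries. The fibronectin receptor subunit Itga5 stayed at or below 11.9 CPM, and Itga3, Itga6 and Itgb1 ranged from 55.2 to 113, from 23.8 to 85.9 and from 265 to 641 CPM.

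Of the proteins that tie integrins to actin, Flna encodes filamin A, which crosslinks actin filaments. Its level was 60.1, 53.2 and 94 CPM in the DMSO 5-day libraries, 285 in the concordant TRULI 5-day library, 359 and 310 in pair Y, 75 and 35.1 in pair X and 117 and 69.4 after TRULI withdrawal. The concordant TRULI 5-day library and pair Y were again the high ones, and the other 7 overlapped. By deposited name the log2 fold change at 5 days was 2.2 (SE 0.258, edgeR adjusted p = 0.00211), by label 0.937 (SE 0.672, adjusted p = 0.521) and with the agreeing libraries 2 (SE 0.421, adjusted p = 0.189).

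Vcl encodes vinculin, which is recruited to talin under tension. It stood at 41.4, 55.1 and 143 CPM in the DMSO 5-day libraries, 28.5 in the concordant TRULI 5-day library, 46.6 and 38.2 in pair Y, 213 and 544 in pair X and 468 and 435 after TRULI withdrawal. The order resembled that of Itgb5: pair X and the TRULI withdrawal libraries were high, and replicate 3 of DMSO 5 d lay above the other 2. The 5-day log2 fold change was 1.72 by label (SE 0.873, edgeR adjusted p = 0.398), -1.09 by deposited name (SE 0.414, adjusted p = 0.207) and -1.54 with the agreeing libraries (SE 0.677, adjusted p = 0.708). Vcl overlaps Ap3m1 on the opposite strand, and whether the counting used strand is not given in the sources used here. The talins Tln1 and Tln2 ranged over the libraries from 30.8 to 61 and from 42.7 to 146 CPM.

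In the integrin-linked kinase complex, Ilk was at 383, 453 and 370 CPM in the DMSO 5-day libraries, 719 in the concordant TRULI 5-day library, 796 and 704 in pair Y, 598 and 721 in pair X and 580 and 900 after TRULI withdrawal. All 7 other libraries lay above the DMSO 5-day libraries. The log2 fold change at 5 days was 0.876 (SE 0.2, edgeR adjusted p = 0.0385) by deposited name and 0.763 (SE 0.316, adjusted p = 0.348) by label. Ilk overlaps Rrp8 and Taf10 on the opposite strand. Its partners Parva, Lims1 and Fermt2 passed in neither grouping and ranged from 129 to 277, from 95 to 317 and from 146 to 293 CPM.

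Among the contractile genes, Myl9 encodes a regulatory light chain of non-muscle and smooth muscle myosin. It was at 1.86, 0.77 and 2.64 CPM in the DMSO 5-day libraries, 16.3 in the concordant TRULI 5-day library, 56.3 and 53 in pair Y, 15 and 5.56 in pair X and 2.66 and 1.2 after TRULI withdrawal. Pair Y was highest, the concordant TRULI 5-day library and pair X lay between, and the DMSO 5-day and TRULI withdrawal libraries, with at most 13 counts each, overlapped. The 5-day log2 fold change was 4.5 by deposited name (SE 0.589, edgeR adjusted p = 0.00333), 2.78 by label (SE 0.745, adjusted p = 0.323) and 3.13 with the agreeing libraries (SE 0.962, adjusted p = 0.416). It was the member with the largest 5-day difference by label and by deposited name.

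Cnn2, a calponin that stabilizes actin filaments under tension, was at 2.33, 8.09 and 14.9 CPM in the DMSO 5-day libraries, 37.6 in the concordant TRULI 5-day library, 39 and 74 in pair Y, 22.5 and 20.5 in pair X and 31.4 and 26.2 after TRULI withdrawal. Every library outside the DMSO 5-day group exceeded that group. The 5-day log2 fold change was 2.51 by deposited name (SE 0.506, edgeR adjusted p = 0.0231) and 1.66 by label (SE 0.63, adjusted p = 0.336). The non-muscle myosin heavy chain Myh9 ranged from 4.56 to 37.8 CPM and Tagln2 from 33.4 to 117.

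**Figure D3:**
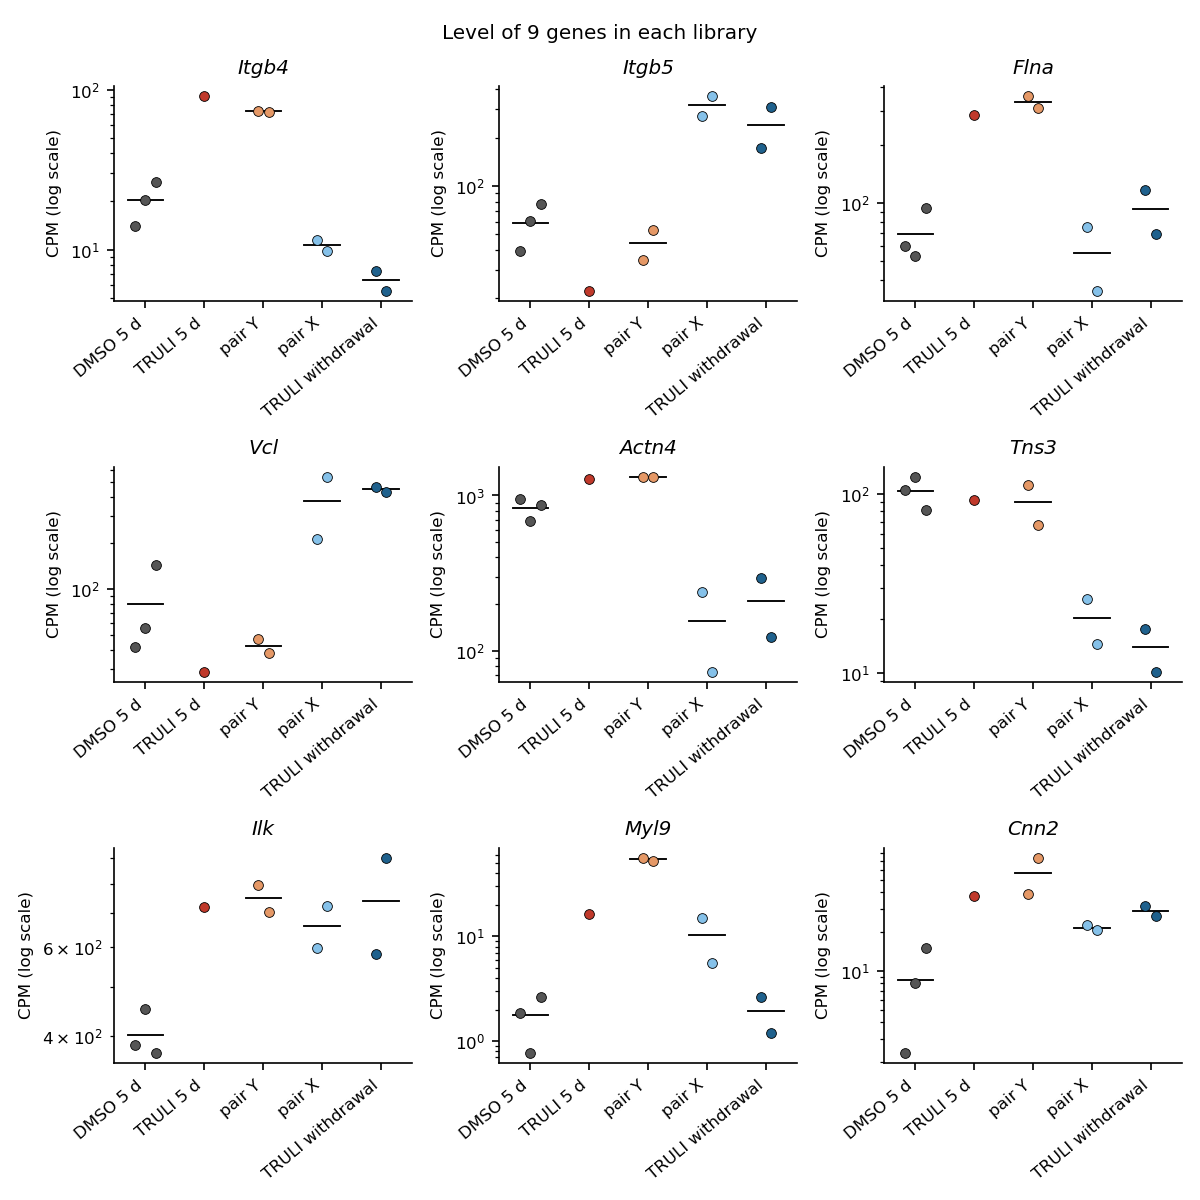
Level in CPM (log scale) of 9 members in each library, in the 5 sets defined by label and deposited name; points are libraries and lines are means of a set. Itgb4, Flna and Myl9 are highest in pair Y or the concordant TRULI 5-day library (Itgb4 91.4, Flna 359 and Myl9 56.3 CPM), whereas Itgb5 and Vcl are highest and Actn4 and Tns3 lowest in pair X and after TRULI withdrawal.

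These 5-day calls moved with the fit. Numbered libraries deviated together by deposited name, and with the replicate number as a block 13 members passed at 5 days, 11 higher and 2 lower, against 10.9% of all genes. By deposited name DESeq2 called 9, 8 higher and 1 lower, against 6.45% of all genes. Without DMSO 5 d replicate 2 there were 2 by deposited name (0.559% of all genes), and without the library named TRULI 5 d replicate 2 there were 3 (1.4%). Of the other genes in the pathway, none passed by label. By deposited name, where 3.56% of all genes passed, 4 of 11 tested matrix ligands were higher and none lower. Among them were Lamb3, a laminin chain, with a log2 fold change of 4.81 (SE 0.585, edgeR adjusted p = 0.00231), and Fn1, fibronectin, with 3.36 (SE 0.421, adjusted p = 0.00269). Lamb3 was at 1.4, 1.54 and 0.293 CPM in the DMSO 5-day libraries, 45.1 in the concordant TRULI 5-day library, 22 and 21.7 in pair Y, 1.28 and 0.855 in pair X and 6.15 and 5.28 after TRULI withdrawal. It shared its high libraries with Itgb4. Of 31 further plaque genes tested, 2 were higher, Sorbs3 and Cavin1, and 2 lower, Limd1 and Nedd9, and of 34 further contractile genes and 3 further integrins none passed. Markers of cell types also passed: the fibroblast gene Postn, at 5.31 (SE 1.04, adjusted p = 0.0197), and the macrophage gene Cd68, at 2.23 (SE 0.543, adjusted p = 0.049), were higher, and Epcam of the supporting cell list, at -1.32 (SE 0.249, adjusted p = 0.0173), was lower. On the supporting cell list 6 of 13 tested genes had a positive fold, with a median of -0.128, and on the hair cell list 10 of 10, with a median of 1.39 and none past the threshold. Their part in the result was not tested.

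The second question is what remained after 5 days without compound. With groups by label, 6 of 38 tested members differed between TRULI and DMSO withdrawal, against 2.29% of all 11562 genes: Vcl and Itgb5 were higher, and Itgb4, Myl9, Actn4 and Tns3 lower. By deposited name 0 of 36 passed, against 0% of all 10845 genes, with 2 members at an unadjusted p under 0.05 (4.76% of all genes) and 0 called by DESeq2 (0.443%). The agreeing libraries hold no DMSO withdrawal library, so no such value could be had without the disputed ones. The median log2 fold change of the members was 0.171 by label and -0.0326 by deposited name, against -0.00234 and 0.0054 over all genes.

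By label, the values set against the TRULI withdrawal libraries are those of pair Y. Vcl, at 468 and 435 CPM against 46.6 and 38.2, had a log2 fold change of 3.4 (SE 0.349, edgeR adjusted p = 0.0287), and Itgb5 one of 2.44 (SE 0.444, adjusted p = 0.0445). Itgb4, at 7.38 and 5.52 CPM against 73.6 and 72.4, had -3.5 (SE 0.47, adjusted p = 0.0287), and Myl9 had -4.79 (SE 0.62, adjusted p = 0.0287). By deposited name the comparison is with pair X, and the same 4 genes gave 0.268, -0.397, -0.71 and -2.38, each with an adjusted p of 1. For Itgb5 the sign changed with the grouping.

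Actn4 encodes an alpha-actinin that crosslinks actin in non-muscle cells. It was at 948, 682 and 863 CPM in the DMSO 5-day libraries, 1270 in the concordant TRULI 5-day library, 1310 and 1320 in pair Y, 240 and 73.1 in pair X and 295 and 123 after TRULI withdrawal. The 4 libraries of pair X and of TRULI withdrawal were low without overlap. By label the withdrawal comparison gave -2.66 (SE 0.462, edgeR adjusted p = 0.0416), and by deposited name 0.441 (SE 0.617, adjusted p = 1). Actn4 overlaps Capn12 on the opposite strand. Tns3, a tensin that binds integrin tails, was at 105, 125 and 81.4 CPM in the DMSO 5-day libraries, 92.7 in the concordant TRULI 5-day library, 113 and 67.3 in pair Y, 25.8 and 14.5 in pair X and 17.6 and 10.1 after TRULI withdrawal. Its low libraries were the same 4, and the withdrawal difference was -2.71 by label (SE 0.507, adjusted p = 0.0451) and -0.524 by deposited name (SE 0.732, adjusted p = 1).

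**Figure D4:**
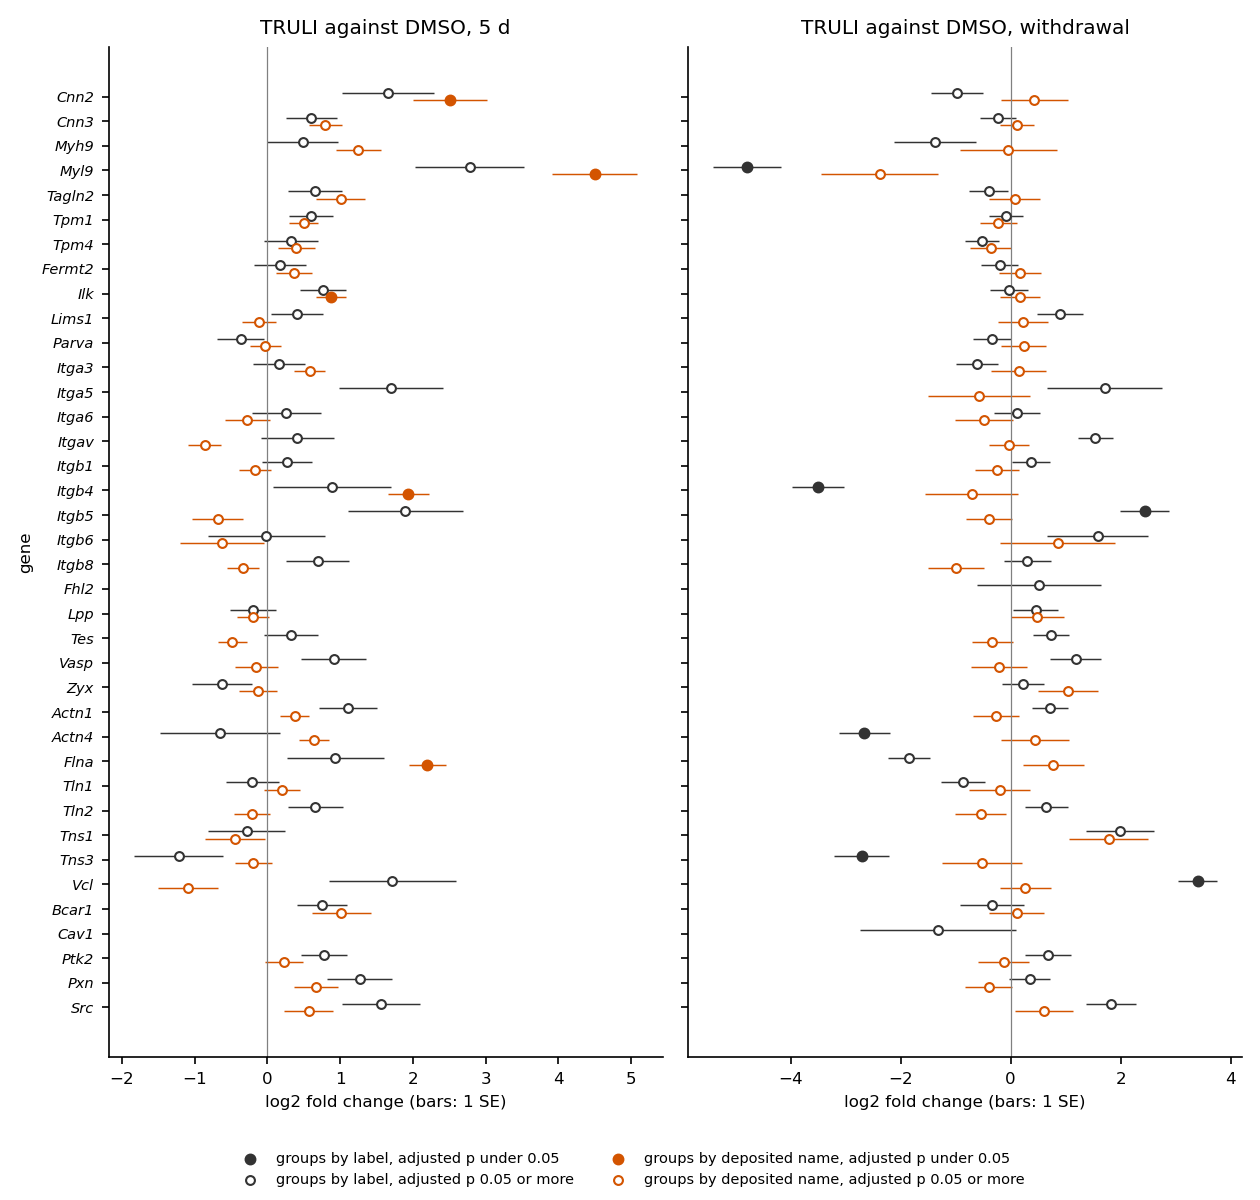
Log2 fold change of each tested member for TRULI against DMSO at 5 days (left) and after withdrawal (right), with groups by label and by deposited name; bars are 1 SE and filled points have an adjusted p under 0.05 by edgeR. At 5 days 0 members pass by label (0.00939% of all genes) and 5 by deposited name (3.56%). After withdrawal 6 pass by label (2.29%) and 0 by deposited name (0%).

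The withdrawal count by label rested on single libraries. It was 0 without DMSO withdrawal replicate 2 (0.23% of all genes) and 3 without replicate 1 (0.457%). It was 12 of 37 without TRULI withdrawal replicate 1 and 11 of 38, 6 higher and 5 lower, without replicate 2, where 25.4 and 17.3% of all genes passed. One fit over all 10 libraries gave 0, and DESeq2 10, 5 in each direction, against 12.4% of all genes. The libraries compared by label also differed in mt-Rnr2, 1.45 and 2.5% after TRULI withdrawal against 23.7 and 13% in pair Y, and in Lfng, which was lower by -2.34 (SE 0.434, edgeR adjusted p = 0.0445). Their part in the result was not tested. Slc1a3, a glutamate transporter of supporting cells, was the other marker on that list to pass, at -2.52 (SE 0.344, adjusted p = 0.0287), and 11 of the 13 did not. Of 31 further plaque genes, Pak1, a kinase downstream of Rac, was higher at 2.11 (SE 0.4, adjusted p = 0.0462), and none of the tested matrix ligands, further integrins or further contractile genes passed. By deposited name none on these lists passed. On the hair cell list none passed in either grouping. There 8 of 8 tested genes had a positive fold by deposited name, with a median of 3.22. By label these were 8 of 11, with a median of 0.697, and the part of these cells was not tested.

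The TRULI withdrawal libraries can also be set against the 3 DMSO 5-day libraries, none of which is disputed. Treatment and time in culture cannot be told apart there. These libraries also differed in mt-Rnr2, 1.45 and 2.5% against 16.8, 26.4 and 16.2%, and its part was not tested. In this comparison 6 of 35 tested members passed, against 21.2% of all 11100 genes, a share of the members below that of all genes. Vcl, Itgb5, Src and Actn1 were higher and Actn4 and Tns3 lower. With the agreeing libraries in one fit, 7 of 38 passed, against 18.4% of all genes: the same 6 and Itgb4, which was lower at -1.66 (SE 0.452, edgeR adjusted p = 0.0346). Src, the tyrosine kinase of the plaque, was at 22.4, 12.7 and 29.9 CPM in the DMSO 5-day libraries, 28.5 in the concordant TRULI 5-day library, 30.2 and 38.2 in pair Y, 60.7 and 103 in pair X and 162 and 82.6 after TRULI withdrawal. Pair X and the TRULI withdrawal libraries were its high ones. The log2 fold change against DMSO 5 d was 2.49 (SE 0.434, edgeR adjusted p = 0.00892). It was 2.5 for Vcl (SE 0.467, adjusted p = 0.0107), 2.04 for Itgb5 (SE 0.371, adjusted p = 0.0102) and 1.08 for Actn1 (SE 0.279, adjusted p = 0.0278). Actn4 gave -2 (SE 0.394, adjusted p = 0.0124) and Tns3 -2.9 (SE 0.401, adjusted p = 0.00502). Without DMSO 5 d replicate 2 a single member passed (2.53% of all genes), and without TRULI withdrawal replicate 1 there were 13 (30.7%). One fit over all 10 libraries, which by label pools pair X with the concordant TRULI 5-day library, gave 0 (0.0927% of all genes), and DESeq2 gave 12 (27.3%). The count was 10 without the filter on low counts (18.6%).

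The further genes of the pathway have to be read against the 21.2% of all genes that passed in this comparison. Of 34 further contractile genes tested, 10 were higher and 4 lower. The regulatory light chains Myl12a and Myl12b had log2 fold changes of 2.49 (SE 0.252, edgeR adjusted p = 0.00335) and 1.97 (SE 0.246, adjusted p = 0.00389), and the GTPase Rhoc one of 1.58 (SE 0.286, adjusted p = 0.0101). Of 31 further plaque genes 7 were higher, Pak1 and Grb2 among them, and 2 lower, among them Limd1 with -1.99 (SE 0.343, adjusted p = 0.00867). Among 11 matrix ligands 4 were higher, with Lamc1 at 1.33 (SE 0.3, adjusted p = 0.018), and 2 lower, with Lamb1 at -3.75 (SE 0.742, adjusted p = 0.0125). Itga9 was the single one of 5 further integrins to pass, and was lower. Of the supporting cell markers 4 of 13 were lower, with Lfng at -2.66 (SE 0.3, adjusted p = 0.00335). Of other cell types, Notch3, Col1a2, Erbb3 and Mbp were higher, and of the genes tested on their lists 3 of 4 for smooth muscle, 1 of 2 for fibroblasts and 2 of 3 for Schwann cells had a positive fold.

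TRULI withdrawal was also compared with TRULI 5 d, where removal of the compound and 5 further days in culture cannot be told apart. By label 0 of 38 tested members passed, against 0% of all 11473 genes, with 3 members at an unadjusted p under 0.05 (3.05% of all genes) and 0 called by DESeq2 (0.0349%). By deposited name 10 of 38 passed, against 14.8% of all 11697 genes. Higher after withdrawal were Vcl, Itgb5, Itgav, Src and Tns1, and lower were Itgb4, Tns3, Actn4, Flna and Myl9. With the agreeing libraries, where the concordant library stands alone for TRULI 5 d and was assumed to vary like the other groups, 5 of 38 passed, against 3.17% of all genes: Vcl and Itgb5 higher, and Itgb4, Tns3 and Actn4 lower. Itgb4 had a log2 fold change of -3.59 by deposited name (SE 0.392, edgeR adjusted p = 0.0072), -3.78 with the agreeing libraries (SE 0.548, adjusted p = 0.0268) and -2.51 by label (SE 1.07, adjusted p = 0.999). Vcl had 3.6 (SE 0.311, adjusted p = 0.00612), 4.02 (SE 0.796, adjusted p = 0.0379) and 0.794 (SE 0.918, adjusted p = 0.999) in the same order. By deposited name Itgb5 had 2.72 (SE 0.43, adjusted p = 0.0122), Tns3 -2.69 (SE 0.422, adjusted p = 0.0122) and Actn4 -2.62 (SE 0.413, adjusted p = 0.0122). Itgav, at 1.65 by deposited name (SE 0.269, adjusted p = 0.0125), had an adjusted p of 0.0507 with the agreeing libraries. The libraries compared by deposited name differed in mt-Rnr2 as those of the withdrawal comparison by label did, 1.45 and 2.5% against 18.4, 23.7 and 13%, and its part was not tested. By deposited name the count was 2 without the library named TRULI 5 d replicate 2 (0.375% of all genes) and 6 without the one named replicate 1 (2.29%). The latter is the same fit as the withdrawal comparison by label, because both set TRULI withdrawal against pair Y. Of the members that passed here, Flna, Itgb4 and Myl9 had also passed at 5 days by deposited name, and the other 7 had not.

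Among the further genes of the pathway, none passed by label. By deposited name, where 14.8% of all genes passed, 5 of 34 contractile genes were higher and 4 lower. Myl12a had 1.75 (SE 0.297, edgeR adjusted p = 0.0139), Myl12b 1.74 (SE 0.314, adjusted p = 0.0159) and Rnd3, which opposes contractility, -1.8 (SE 0.35, adjusted p = 0.0182). Of 31 plaque genes 4 were higher, led by Pak1 at 2.29 (SE 0.355, adjusted p = 0.0119), and 1 lower. Lamb3 and Lamb1 were lower among 11 matrix ligands, as was Itga9 among 4 integrins. Of 13 supporting cell markers 4 were lower, Lfng among them. Markers of other cell types were higher: Notch3 at 1.84 (SE 0.441, adjusted p = 0.0311), Erbb3 at 1.89 (SE 0.376, adjusted p = 0.0192), Mbp at 1.43 (SE 0.36, adjusted p = 0.0348) and Mitf at 2.06 (SE 0.589, adjusted p = 0.0491). Of the genes tested on their lists, 1 of 4 for smooth muscle, 2 of 4 for Schwann cells and 1 of 2 for melanocytes had a positive fold. The smooth muscle list summed to 187 and 330 CPM after withdrawal against 83.9, 98.5 and 161 in the libraries named TRULI 5 d. These sums were 1730 and 2150 against 436, 454 and 830 for Schwann cells, and 30.5 and 10.3 against 15.3, 16.7 and 20.4 for melanocytes. Their part in the result was not tested.

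Some paralogous members went in different directions, and a ratio within a library does not depend on scaling between libraries. On the FPKM scale, the ratio of Actn4 to Actn1 was 7.98, 6.91 and 8.56 in the DMSO 5-day libraries, 9.28 in the concordant TRULI 5-day library, 9.88 and 10 in pair Y, 1.28 and 0.162 in pair X and 2.7 and 0.449 after TRULI withdrawal. Actn4 exceeded Actn1 in the first 6 of these, and its excess was small or absent in the last 4. The ratio of Itgb4 to Itgb5 was 0.187, 0.782 and 0.259 in the DMSO 5-day libraries, 2.81 in the concordant TRULI 5-day library, 1.15 and 0.808 in pair Y, 0.0226 and 0.0322 in pair X and 0.023 and 0.00993 after TRULI withdrawal. The 5 sets formed 3 levels without overlap, with the concordant TRULI 5-day library and pair Y at the top and pair X and TRULI withdrawal at the bottom. The ratio of Tns3 to Tns1 was 5.78, 16 and 3.6 in the DMSO 5-day libraries, 13 in the concordant TRULI 5-day library, 12 and 10.2 in pair Y, 2.04 and 2.39 in pair X and 0.992 and 0.215 after TRULI withdrawal. It was again low in the last 4 libraries. The ratio of Cnn2 to Cnn3 was not low in the last 4 libraries, with 0.00172 to 0.00797 in the DMSO 5-day libraries, 0.0138 to 0.0227 in the concordant TRULI 5-day library and pair Y and 0.00713 to 0.0145 in the last 4. The ratio of Tln1 to Tln2 was 0.854 to 2.43 in the first 6 and 0.307 to 0.641 in the last 4. The ratio of Tpm4 to Tpm1 differed less, with 0.447 to 0.709 in the first 6 and 0.333 to 0.457 in the last 4, which overlap. Effective lengths move single ratios. On read counts, Actn4 to Actn1 was 5.09 to 6.97 in the first 6 libraries and 0.148 to 1.12 in the last 4, and Tns3 to Tns1 5.02 to 12 and 0.162 to 1.79. Itgb4 to Itgb5 on read counts was 0.353, 0.34 and 0.347 in the DMSO 5-day libraries. It was 1.36 to 4.11 in the concordant TRULI 5-day library and pair Y and 0.0178 to 0.0431 in the last 4. The order of these 3 levels was the same on both scales. On FPKM the upper levels nearly met, at 0.808 in a pair Y library and 0.782 in a DMSO 5-day library.

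**Figure D5:**
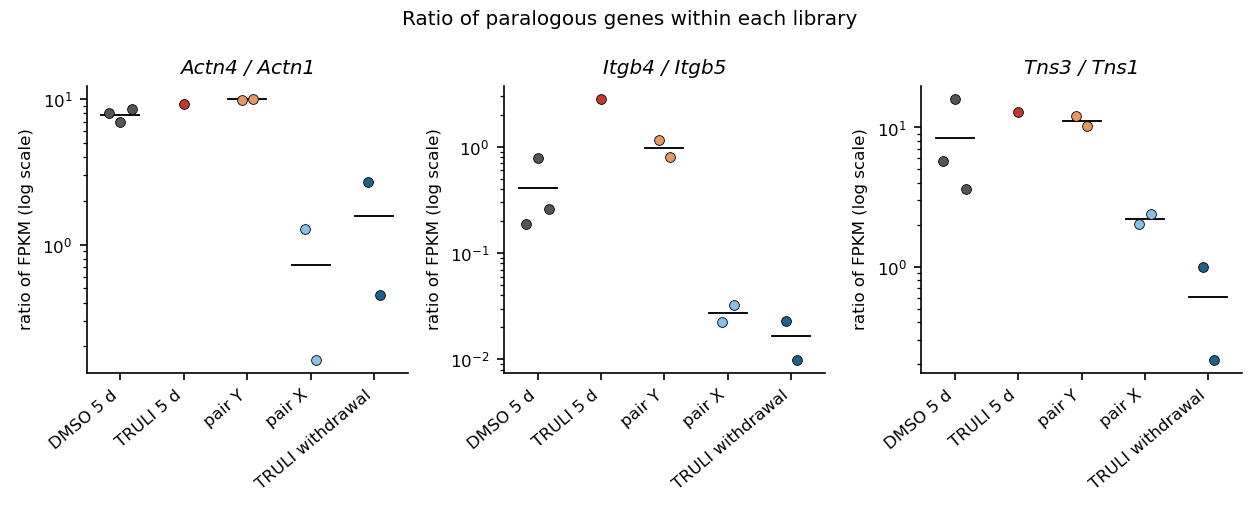
Ratio of FPKM (log scale) of Actn4 to Actn1, Itgb4 to Itgb5 and Tns3 to Tns1 within each library; points are libraries and lines are means of a set. Each ratio is lowest in pair X and after TRULI withdrawal, for Actn4 to Actn1 at most 2.7 against at least 6.91 elsewhere.

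By role, the contractile genes took 0.192, 0.215 and 0.222% of protein-coding counts in the DMSO 5-day libraries, 0.377% in the concordant TRULI 5-day library, 0.334 and 0.383% in pair Y, 0.239 and 0.217% in pair X and 0.238 and 0.233% after TRULI withdrawal. The kinase-complex genes took between 0.102 and 0.103% in the DMSO 5-day libraries, 0.153% in the concordant TRULI 5-day library and 0.152 and 0.146% in pair Y, and at most 0.122% in the rest. Both shares were high in the same 3 libraries. On scaled CPM the contractile genes summed to 3320, 2820 and 3630 there, close above the 2790 of a TRULI withdrawal library. Of the 3320 CPM in the concordant library 2150 were Cnn3, which passed in no comparison by label or by deposited name. The kinase-complex genes summed on that scale to 1350 in the concordant TRULI 5-day library, 1290 and 1380 in pair Y and 1300 and 1420 after TRULI withdrawal, which overlap. The plaque proteins that link to actin took 0.228% in the concordant TRULI 5-day library and 0.254 and 0.215% in pair Y. Elsewhere they took at most 0.159%. They stayed apart on scaled CPM, with 2000, 2150 and 2040 against at most 1480. Actn4 and Flna made up most of the sums in these 3 libraries, with 1270 and 285 of the 2000 CPM in the concordant library. By deposited name 4 of 8 tested plaque members had a positive fold at 5 days, with a median of 0.0066. The integrins took most in other libraries, with 0.155 and 0.144% in pair X and 0.137 and 0.128% after TRULI withdrawal against at most 0.12% elsewhere. The strain-responsive proteins, Zyx, Vasp, Tes, Lpp and Fhl2, took from 0.033 to 0.0438%, and none of them passed in any of the comparisons by label or by deposited name. Zyx, zyxin, ranged from 23.9 to 77 CPM and Vasp, which promotes actin polymerization, from 18.5 to 68.4, the latter highest in pair X and after TRULI withdrawal. In the signaling role, Pxn, paxillin, ranged from 41.9 to 251 CPM, Ptk2, focal adhesion kinase, from 48.4 to 117 and Bcar1, a Src substrate, from 29.8 to 124.

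Whether the TRULI effect itself differed between the 5-day and withdrawal times was tested as a difference of effects. No member passed, 0 of 38 by label and 0 of 38 by deposited name, against 0% of all 11861 genes in each. At an unadjusted p under 0.05 there were 5 and 7 members (6.83 and 9.44% of all genes), and DESeq2 called 2, Myl9 and Itgb4, in each grouping, both lower (0.371 and 0.658% of all genes). For Myl9 the difference was -7.56 (SE 0.999, edgeR adjusted p = 0.083) by label and -6.93 (SE 1.05, adjusted p = 0.0893) by deposited name. For Itgb4 it was -4.37 (SE 1.18, adjusted p = 0.645) and -2.68 (SE 0.553, adjusted p = 0.18). A single member passed by label without the library labelled TRULI 5 d replicate 2 (0.00843% of all genes). The comparisons share control libraries, so the values given for them side by side are not independent. Pair Y also stands for DMSO withdrawal by label and for TRULI 5 d by deposited name, and pair X for the reverse.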

How the data were processed

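The deposited tables give, per library, an expected count and an effective length for each gene. Per the labels and the study's methods, RNA of sorted cells was sequenced and mapped to GRCm38 with STAR by the authors. The counting program is not given in the sources used here. Expected counts were rounded and protein-coding genes of GENCODE M21 were kept. Each comparison was fitted on its own groups with edgeR 4.0.16 (filterByExpr, TMM factors, quasi-likelihood test, Benjamini-Hochberg adjustment over all genes tested, threshold 0.05) in R 4.3.3, with DESeq2 1.42.0 as an alternative. CPM uses TMM factors over 10 libraries. FPKM was computed from the deposited expected counts and effective lengths, which follow the isoform mix. Replicates are biological according to the study's methods. A floor of 3 counts covers counting error only.

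Groups came from the labels, and the deposited names were a full alternative. Deviations of same-numbered libraries correlated across genes by 0.431, 0.227 and 0.352 for TRULI and DMSO 5 d by deposited name, so that the number was also used as a block. Folds were limited to members that passed in a comparison under either grouping, at most the 6 with the lowest p, and for the 3 with the largest change by label. From other lists at most the 3 with the lowest p were to be named, and other genes named or given folds, Ccn2, marker genes and the members with opposite order at the 2 times among them, were chosen after their values were seen. Results for some genes of these lists are not reported here. The fits were also run on simulated counts with known changes. Members and lists were chosen with earlier results of these data known.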

Additional observations from a re-analysis of the deposited data

Results flagged for a closer look

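In some members the groups lay in opposite order at the 2 times, with every TRULI library on one side of every DMSO library at 5 days and on the other side after withdrawal. By label these were Myl9, with a difference of TRULI effects, withdrawal minus 5 d, of -7.56 (SE 0.999, edgeR adjusted p = 0.083), and Cnn2, with -2.61 (SE 0.881, adjusted p = 0.645). By deposited name they were Myl9, with -6.93 (SE 1.05, adjusted p = 0.0893), Itgb4, with -2.68 (SE 0.553, adjusted p = 0.18), and Tpm1, with -0.737 (SE 0.335, adjusted p = 0.525). None of these differences passed edgeR's test of the difference itself, and at withdrawal only Myl9 by label had passed on its own by edgeR. DESeq2 called the difference for Myl9 and Itgb4 in each grouping. These members were named because of this order, after their values were seen. The share of all genes with such an order was not computed, so the number of members with it cannot be judged.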

How the results depend on the processing

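Results moved with the source of the groups, with single libraries and with the fit, and the cause was not tested. By label, 0 members passed at 5 days and 6 after withdrawal, with 0 for TRULI withdrawal against TRULI 5 d. By deposited name these were 5, 0 and 10, and with the agreeing libraries 5 for the last. In the same order, the shares of all genes by edgeR were 0.00939, 2.29 and 0% by label and 3.56, 0 and 14.8% by deposited name. By label DESeq2 gave 1, 10, 12 for TRULI withdrawal against DMSO 5 d (6 by edgeR) and 2 for the difference of effects. The shares of all genes were 2.42, 12.4, 27.3 and 0.371%. No filter on low counts gave 10 after withdrawal (8.69% of all genes, against 2.29% with the filter). It gave 10 against DMSO 5 d (18.6%) and 1 for the difference (0.0697%). One fit over 10 libraries gave 0 after withdrawal (0%) and 0 against DMSO 5 d (0.0927%). By deposited name, at 5 days, after withdrawal and for withdrawal against TRULI 5 d, the rule with a fold minimum gave 4, 0 and 10. Of all genes, 359 of 10952, 0 of 10845 and 1706 of 11697 passed it. In the same order DESeq2 gave 9, 0 and 14, against 6.45, 0.443 and 24.5% of all genes (2 for the difference, 0.658%). The following settings were chosen after seeing the data. DESeq2 size factors gave 5, 0 and 10, against 3.59, 0 and 15.2% of all genes. No filter gave 7, 0 and 10, against 4.27, 1.35 and 13.8% (2 for the difference, 0.887%). One fit over 10 libraries gave 4, 0 and 11, against 1.04, 0 and 19.5%.

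With the replicate number as a block, 10 members passed after withdrawal by label (16.3% of all genes, against 2.29% without the block). For the difference 1 passed (0.00843%). By deposited name the block gave 13 at 5 days (10.9%), 0 after withdrawal (0%) and 9 for withdrawal against TRULI 5 d (10.6%). In the last of these the library named TRULI 5 d replicate 3 shares its number with no other and does not enter the contrast. By label the pairing was not borne out at 5 days, where same-numbered libraries correlated at -0.165, 0.0609 and -0.211 (after withdrawal, with 2 pairs, 0.212), and not every library correlated best with its own number. Under this block, withdrawal against TRULI 5 d reversed for Actn4 (0.528), Itgav (-0.0121) and Itgb5 (-0.441). In that fit the concordant library was the only one numbered 3. The block fits it alone, so these values rest on pair X and the TRULI withdrawal libraries.

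Signs also reversed by deposited name. In the order of edgeR, one fit over 10 libraries, DESeq2, DESeq2 size factors, no filter and block, the 5-day value was -0.684, -0.68, -0.681, -0.681, -0.687 and -0.712 for Itgb5 and -1.09, -1.09, -1.08, -1.08, -1.09 and -0.926 for Vcl, with -1.45 and -1.54 in the agreeing libraries. After withdrawal it was 0.441, 0.409, 0.439, 0.438, 0.436 and 0.534 for Actn4 and -0.397, -0.403, -0.406, -0.406, -0.389 and -0.437 for Itgb5. For Cav1, with counts near 0, the difference of effects was -3.26 by label, and by deposited name 2.07 by edgeR, 1.38 by DESeq2, 2.08 with its size factors, 2.1 with no filter and 2.15 with the block. The cause was not tested.

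Each library was left out in turn, under either grouping. Counts are given here for the fits in which each group kept at least 2 libraries, which excludes all those after withdrawal. At 5 days 0 to 9 members passed (0 to 20.2% of all genes). For withdrawal against TRULI 5 d there were 0 to 9 (0 to 7.44%). Against DMSO 5 d there were 1 to 5 (2.53 to 7.77%), and for the difference 0 to 1 (0 to 0.00843%). Signs reversed within these ranges: at 5 days Flna -0.31 to 2.49, Itgb4 -0.912 to 2.19, Itgb5 -1.05 to 2.45 and Vcl -1.39 to 2.43; after withdrawal Actn4 -3.42 to 1.52, Itgb5 -0.876 to 2.81 and Vcl -0.269 to 3.55; for withdrawal against TRULI 5 d Actn4 -3.4 to 0.441, Itgav -0.0235 to 1.81 and Itgb5 -0.397 to 3.1; for the difference Cav1 -8.49 to 2.99. Where a group was left with 1 library, it was assumed to vary like the others. Groups of 2 or 3 libraries and 2463872 to 6255149 counts limit what can be seen of genes near the floor, such as Cav1, Fhl2, Itga2 and Tagln. Testing every biotype and DESeq2 size factors by label kept each count within 1.5 times.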
